A study of Mus musculus with 6 samples.

Results

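The miRNAs of the imprinted miR-379 to miR-410 cluster were followed among the short RNAs held by Argonaute (Ago) proteins in mouse brain. The cluster is a row of miRNA genes in the Dlk1-Dio3 imprinted domain and is expressed only from the chromosome inherited from the mother. Its precursors are cut from long noncoding transcripts, are made mainly in neurons of the adult brain, and are known for adjusting neuronal excitability and the growth of dendrites. Each precursor folds into a hairpin whose 5p or 3p arm is loaded into Ago, around which the RNA-induced silencing complex (RISC) is built. The loaded RNA finds its targets with its seed, the bases from position 2 on, so a change in those bases changes the targets.

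Members were the sequences that the deposited table named after 1 of the hairpins from miR-379 to miR-410, on either arm, with miR-376 left out, and reads were summed for each mature name. This gave 60 mature names of 793 in the table and 994 sequences of 109434. Of the 60 names, 59 were above 0 in at least 1 sample and miR-654-3p was at 0 in all of them. The 59 names came from 31 hairpins, and 55 names had a mean of at least 1 RPM (reads per 1000000 reads of the library) and were tested among 689 mature miRNAs. The labels gave 3 WT and 3 Tau tg samples of brain. The labels named hippocampus in 1 field and cortex with hippocampus in another. Per the study's methods the mice were 3-month-old males on a C57BL/6J background, and Tau tg mice carried the cDNA of a fragment of human tau under the Thy 1.2 promoter, which drives expression in neurons. Which neurons express the transgene, and its level, were not measured here.

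Recovered reads ranged from 998248 in WT 3 to 6879551 in Tau tg 1, so that 3 reads corresponded to 2.75 RPM and 0.427 RPM in these libraries. Mature miRNAs took 82.7% to 92.4% of the reads. Neuronal miRNAs, the markers of the labelled tissue, summed to between 163214 RPM and 186092 RPM. Summed markers of pituitary and other epithelium or endocrine cells were 3997, 7421 and 10512 RPM in WT 1, 2 and 3 and 3205 to 3341 RPM in Tau tg. Of their 12 tested names, 5 had an unadjusted p under 0.05 and all 5 were lower in Tau tg, beside 3.63% of all miRNAs tested in either direction. Summed choroid plexus markers ranged from 2033 RPM to 5732 RPM in WT and from 2509 RPM to 9789 RPM in Tau tg, and 2 of their 6 tested names had such a p, both higher in Tau tg (median log2 fold change of the 6, 1.33). The part of these cell types in the results below was not tested. Fewer cells of a type and less RNA per cell cannot be told apart in such bulk samples.

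The sequences that carry the largest part of the cluster's reads are given first, since the seed decides what each can bind. They are the mature sequences of RefSeq (GRCm38.p6), 5′ to 3′, with positions 2 to 8 in capitals. RefSeq held a mature sequence for 56 of the 59 names.
miR-369-3p: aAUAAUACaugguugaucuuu
miR-410-3p: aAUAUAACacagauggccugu
miR-300-3p: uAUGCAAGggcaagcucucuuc
miR-381-3p: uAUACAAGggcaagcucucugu
miR-382-5p: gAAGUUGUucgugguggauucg
miR-411-5p: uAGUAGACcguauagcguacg
miR-379-5p: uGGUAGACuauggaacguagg
miR-154-5p: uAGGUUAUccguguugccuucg
miR-323-3p: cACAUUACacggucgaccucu
miR-667-3p: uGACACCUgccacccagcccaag

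The members did not form 1 seed family. The 56 sequences held 55 different seeds of positions 2 to 8, and only miR-379-3p and miR-411-3p shared one, AUGUAAC. For 42 of the 56, no mature miRNA of RefSeq outside the cluster had the same seed. Several members resembled each other outside the seed or around it. The string AGGUU stood in 8 of 27 5p sequences (29.6%), against 3.43% of 670 other mouse 5p sequences. The string CACGG stood in 6 of 29 3p sequences (20.7%), against 0.882% of 680 other 3p sequences. These strings were picked as the most common among the members, read on the RNA strand only, and further common strings overlapped them.

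All 31 hairpins lay on the plus strand of chromosome 12 (GRCm38), from 109709060 at the start of miR-379 to 109743795 at the end of miR-410, a stretch of 34.7 kb. The first 19, from miR-379 to miR-544, lay upstream of the annotated noncoding gene Mirg (109729764 to 109749460). The other 12 lay within it, 8 overlapping an exon and 4 in introns. miR-666 and miR-544 were placed by their mature sequences.

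The level of the whole cluster in RISC did not differ between the genotypes beyond the spread of the samples. Its summed level was 22032, 26391 and 17198 RPM in WT 1, 2 and 3 and 24082, 23688 and 19482 RPM in Tau tg 1, 2 and 3. Both the highest and the lowest sample were WT, and the Tau tg values lay between them. The group means were 21874 RPM ± 4599 (SD, n = 3) in the WT group and 22417 RPM ± 2549 in Tau tg, a ratio of 0.04 on the log2 scale. As a share of all mature miRNA reads the cluster held 2.27% to 3.39% in WT and 2.34% to 2.80% in Tau tg. The 3p arms contributed 15349 RPM ± 2987 in the WT group and 15530 RPM ± 2296 in Tau tg, and the 5p arms 6525 RPM ± 1617 and 6887 RPM ± 260.

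Reads were spread over many members rather than held by 1. The most abundant, miR-369-3p, took 9.29% of the cluster and ranked 60 among all mature miRNAs. The 15 most abundant members took 74.5%, and 10 of them were 3p arms. In all, 6 members had a mean above 1000 RPM, 25 lay between 100 and 1000 RPM, 16 between 10 and 100 RPM, 8 between 1 and 10 RPM, and 4 below 1 RPM. miR-679-3p, miR-668-5p and miR-487b-5p were seen in Tau tg 1 alone, with 27, 19 and 15 reads, and this was the deepest library.

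Hairpins that lie next to each other on the chromosome differed widely in level. Summed over both arms, miR-369 had a mean of 2893 RPM and miR-412 (109743289 to 109743368), the hairpin just upstream of it (109743418 to 109743496), had 35.2 RPM. The 3 neighbors miR-494, miR-679 and miR-1193 had means of 7.82, 4.64 and 13.4 RPM, while miR-411 near the start of the row reached 2110 RPM. High and low hairpins were found on both sides of the Mirg start.

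**Figure D1:**
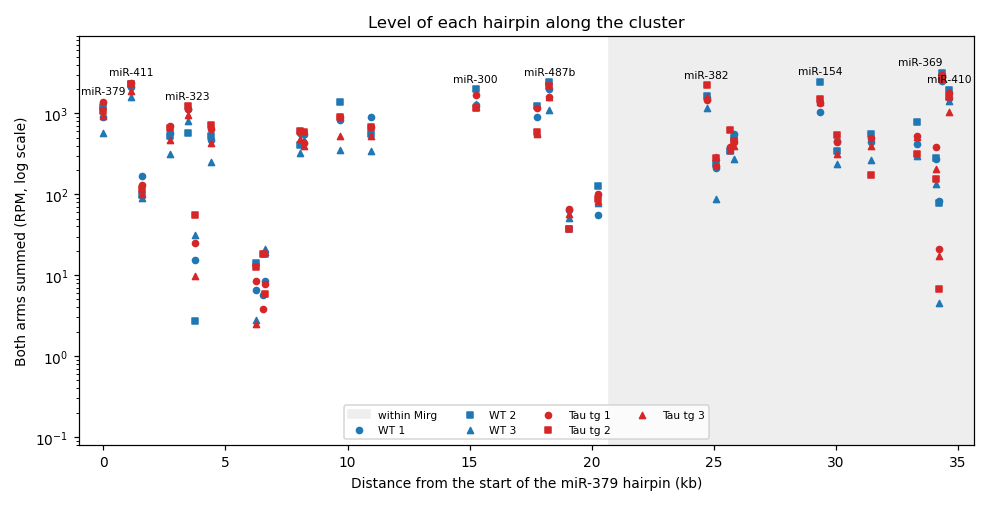
Level of each of the 31 hairpins, both arms summed (RPM, log scale), against its distance in kb from the start of miR-379. Blue marks WT and red Tau tg samples, 1 symbol per sample, samples at 0 are not drawn and the gray area lies within Mirg. The summed level ran from 4.64 RPM (miR-679, mean) to 2893 RPM (miR-369, mean).

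Among the abundant 3p members, miR-369-3p was at 1554, 2406 and 2501 RPM in WT samples 1, 2 and 3, against 1901, 2103 and 1881 RPM in Tau tg 1, 2 and 3. miR-487b-3p was at 2014, 2422 and 1102 RPM in the WT samples, against 1580, 2153 and 1608 RPM in the Tau tg samples. miR-410-3p was at 1525, 1950 and 1424 RPM in the WT samples, against 1800, 1595 and 1045 RPM in the Tau tg samples. In each of these the groups overlapped, and the lowest of the 6 samples was a different library each time, WT 1, WT 3 and Tau tg 3. Their log2 fold changes (Tau tg over WT, on log2(RPM + 1)) were -0.10 (SE 0.31), 0.01 (SE 0.35) and -0.17 (SE 0.32). miR-300-3p and miR-381-3p, near twins that differ within the seed, had means of 1396 and 794 RPM and log2 fold changes of -0.17 (SE 0.32) and -0.31 (SE 0.40). The level of miR-300-3p includes reads of miR-381-3p length with G at position 4, described below, 463 RPM of them in WT 2.

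The widest ratio between samples among the 15 most abundant members was that of miR-495-3p, with 829, 1367 and 355 RPM in WT and 887, 907 and 517 RPM in Tau tg. The WT samples alone spanned the whole range, a factor of 3.85. The narrowest was that of miR-411-3p, at 761, 858 and 737 RPM in WT and 873, 811 and 772 RPM in Tau tg, a factor of 1.19. The 3p members miR-323-3p, miR-667-3p and miR-154-3p had log2 fold changes of 0.42 (SE 0.34), 0.14 (SE 0.39) and 0.25 (SE 0.38).

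Among the 5p members, miR-382-5p was at 937 to 1365 RPM in the WT samples, against 1231, 1975 and 1396 RPM in the Tau tg samples. miR-411-5p was at 1382, 1460 and 879 RPM in the WT samples, against 1494, 1494 and 1137 RPM in the Tau tg samples. miR-154-5p was at 675, 1704 and 1093 RPM in the WT samples, against 838, 760 and 858 RPM in the Tau tg samples. For all of them the groups overlapped, and for miR-154-5p the WT samples spread over a factor of 2.52 while the Tau tg samples lay close together. The log2 fold changes were 0.34 (SE 0.33), 0.17 (SE 0.33) and -0.40 (SE 0.36). That of miR-369-5p was 0.13 (SE 0.34) and that of miR-379-5p 0.25 (SE 0.38).

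**Figure D2:**
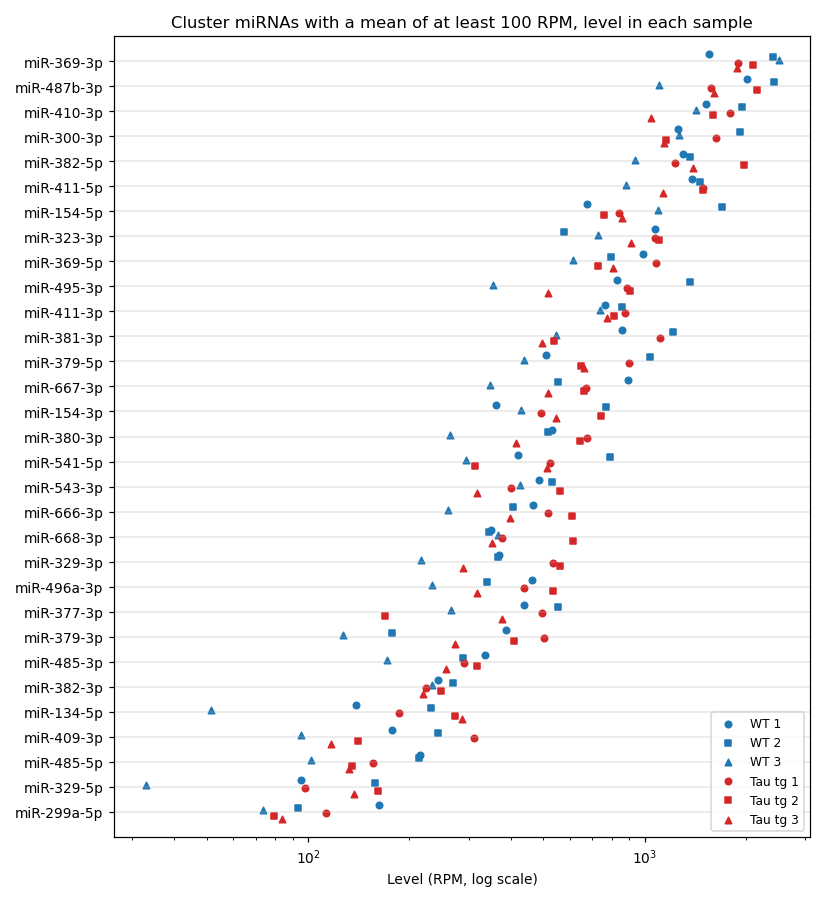
Level (RPM, log scale) of the 31 cluster miRNAs with a mean of at least 100 RPM in each of the 6 samples, blue for WT and red for Tau tg, 1 symbol per sample. The groups overlap in every row, and WT 3 (blue triangles) is often the lowest sample.

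Of the 55 members tested, 0 had an unadjusted p under 0.05 in limma fitted over all 689 mature miRNAs, where 25 did (3.63%), and 0 had an adjusted p under 0.05, as over all 689. edgeR and DESeq2 on recovered reads each gave 1 member with an unadjusted p under 0.05, miR-412-3p, and 0 after adjustment, while over all 689 they gave 28 and 37 unadjusted and 0 and 5 adjusted. The median log2 fold change of the members was 0.13, beside 0.25 over all tested miRNAs, with 35 members above 0 and 20 below. With median-of-ratios scaling, which moved the median of all miRNAs to 0.09, the median of the members was -0.03, with 26 above 0 and 29 below. Of the members, 47 lay within 1 of 0 on the log2 scale. Among the 31 with a mean of at least 100 RPM the fold changes ran from -0.40 to 1.04, with a median SE of 0.39, so changes of this size could not be told from the spread of 3 samples per group. Single libraries decided some calls. Without WT 1, miR-154-5p (-0.74), miR-323-3p (0.66) and miR-379-3p had an unadjusted p under 0.05 in limma, beside 58 of all 689. Without WT 2 miR-134-5p and miR-412-3p did, beside 24 of all 689, and without WT 3 miR-299a-3p, beside 25. Without any 1 Tau tg sample miR-377-5p did, beside 24, 40 and 29 of all 689 without Tau tg 1, 2 and 3. After adjustment 0 members remained each time.

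The members with the lowest p were named after their values were seen. miR-377-5p was read 0, 1 and 1 times in WT 1, 2 and 3 and 42, 3 and 45 times in Tau tg 1, 2 and 3. In RPM this was 0 to 0.917 in WT and 5.98, 2.51 and 18.4 in Tau tg, and the groups did not overlap, but all WT values lay below the 3-read floor (log2 fold change 2.40, SE 1.20, limma adjusted p = 0.896). The fitted fold depends on the pseudocount, and the pooled reads, 2 in WT and 90 in Tau tg, gave a ratio of 19.2 with an exact 95% interval of 5.17 to 161 for counting error. miR-379-3p was at 386.9, 178.2 and 126.6 RPM in the WT samples, against 274 to 504 RPM in the Tau tg samples, with overlap through WT 1 (0.89, SE 0.46, limma adjusted p = 0.896). miR-134-5p, which is known to restrain the growth of dendritic spines through Limk1, was at 139, 232 and 51.4 RPM in the WT samples, against 186, 273 and 286 RPM in the Tau tg samples (1.04, SE 0.54, limma adjusted p = 0.896). WT 3, the shallowest library, was the low sample in the last 2.

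**Figure D3:**
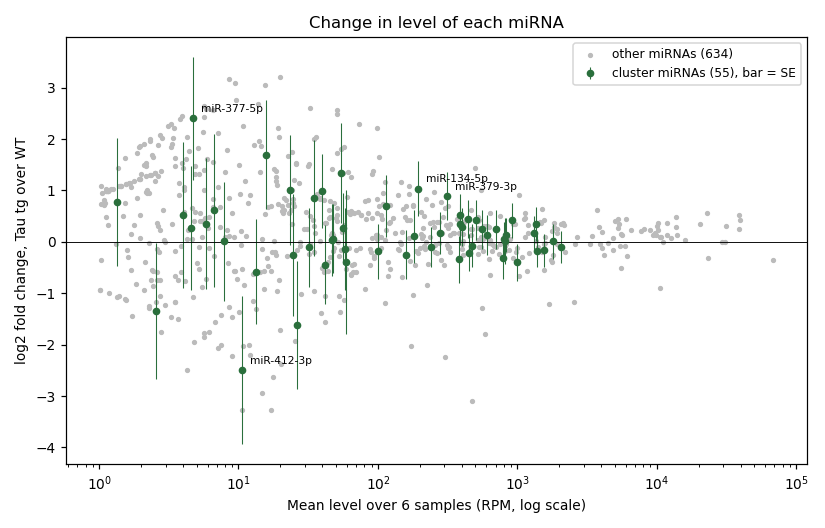
Log2 fold change (Tau tg over WT) of each mature miRNA against its mean level over the 6 samples (RPM, log scale), green for the 55 cluster miRNAs with their SE and gray for the 634 others. The cluster miRNAs spread around 0 and scatter more at low level, from -2.50 (miR-412-3p) to 2.40 (miR-377-5p).

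Counted over samples instead, 49 members were above 0 in all 6 samples, and the groups did not overlap in 1 of them (2.04%), miR-381-5p, beside 9.53% of the 472 mature miRNAs above 0 in all samples. miR-381-5p, the minor arm of its hairpin, was at 37.0, 20.3 and 22.9 RPM in the WT samples, against 46.5, 47.7 and 65.5 RPM in the Tau tg samples (log2 fold change 1.0, SE 0.72, limma adjusted p = 0.896). Of the 46 members with a mean of at least 10 RPM that were above 0 in all samples, 21 (45.7%) were lowest in WT 3, beside 26.7% of 450 such miRNAs. WT 2 was the highest for 14 of the 46 (30.4%), beside 21.1% of the 450.

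A few minor arms stood out by single libraries. miR-666-5p was at 104, 4.07 and 64.2 RPM in the WT samples, against 95.9, 0.836 and 84.7 RPM in the Tau tg samples, low in WT 2 and Tau tg 2. miR-380-5p was at 47.8, 1.35 and 53.2 RPM in WT and between 20.9 and 55.6 RPM in Tau tg, low in WT 2. miR-412-3p was at 60.9 RPM in WT 1, between 0 and 2.75 RPM in the other WT samples and between 0 and 0.285 RPM in Tau tg. The fitted difference of -2.50 on the log2 scale depends on the pseudocount and rested on WT 1, with 130 of the 133 WT reads, beside 2 reads in all of Tau tg. Across the 24 hairpins with a mean of at least 1 RPM in each arm, the median share of the minor arm was 2.75% in WT 2 and 8.65% in Tau tg 2. In the other 4 samples it was 11.2% to 18.5%. The same 2 libraries held the lowest minor arm share of 6 hairpins each. They were lowest most often among the 177 other hairpins too, WT 2 for 39 and Tau tg 2 for 32. For those 177 the median ran from 2.85% in WT 2 to 4.89% in Tau tg 1.

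Other miRNAs of the same imprinted domain were counted alongside. Of 24 tested names from hairpins opposite Rtl1 and near it, 1 had an unadjusted p under 0.05 and it was lower in Tau tg, and the median log2 fold change was 0.35. Of 8 tested names of miR-376a, miR-376b, miR-376c, miR-1197 and miR-3072, which lie among the members, 0 did, and the median was 0.19. Summed, the group near Rtl1 reached 22961 RPM ± 5200 in the WT group and 23837 RPM ± 2824 in Tau tg, and like the cluster's sum it was lowest in WT 3 and highest in WT 2.

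Which arm Ago held was strongly set for most hairpins. The 24 hairpins compared had a mean of 10 RPM or more over both arms and 1 RPM or more in each arm. This left out miR-487b, miR-668 and miR-496a, with 3p means of 1813, 401 and 388 RPM and 5p means of 0.356, 0.45 and 0.444 RPM. Of the 24, 15 (62.5%) gave more 3p than 5p reads and 9 more 5p, whereas 42.4% of the 177 other hairpins gave more 3p. In 14 hairpins the 3p arm led in all 6 samples, in 8 the 5p arm did, and miR-544 and miR-412 switched between samples. miR-410, miR-495, miR-667, miR-377 and miR-300 gave less than 3% of their reads from the 5p arm on average, and miR-541 gave 99.8%. miR-411, miR-154 and miR-379 used both arms, with mean 5p shares of 61.6%, 63.4% and 69.3%.

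**Figure D4:**
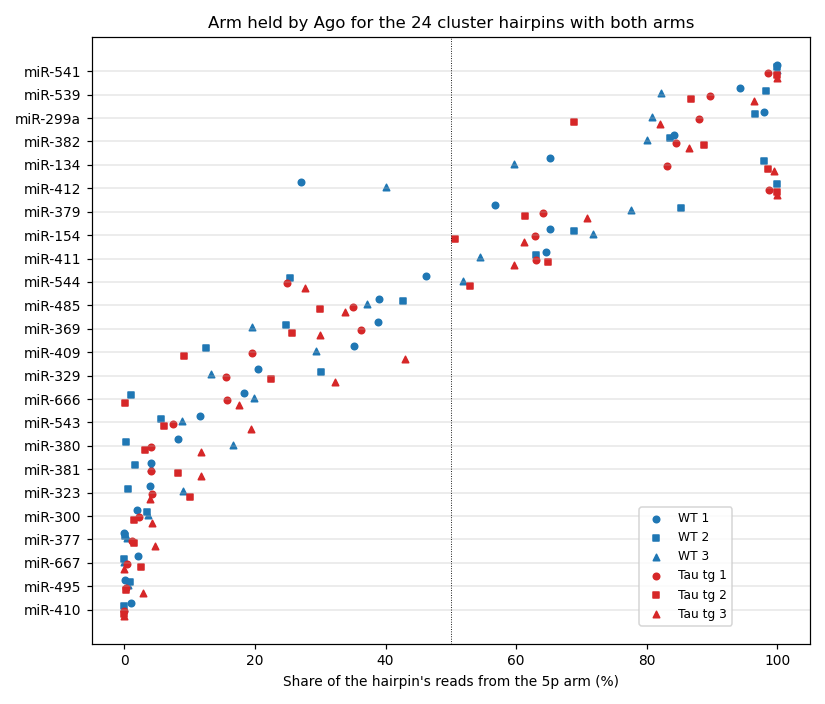
Share of reads from the 5p arm (percent) for each of the 24 hairpins with a mean of at least 1 RPM in each arm. There is 1 symbol per sample, blue for WT and red for Tau tg. Samples of both groups lie together at most hairpins, and miR-412 and miR-134 spread widest, from 27.0% to 100% and from 59.6% to 99.4%.

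The arm ratio had an unadjusted p under 0.05 in 1 of the 24 hairpins (4.17%), beside 6 of 201 over all hairpins (2.99%). It was miR-377, whose 5p share was 0, 0.123 and 0.344% in WT samples 1, 2 and 3, against 1.19, 1.46 and 4.66% in Tau tg 1, 2 and 3. No miR-377-5p read among 934 in WT 1 allows a share of up to 0.321%. All Tau tg samples lay above all WT samples (log2 ratio 2.74 higher, SE 0.78, limma adjusted p = 0.836). It rested on the same few miR-377-5p reads as the level above, while miR-377-3p was at 437.5, 551.6 and 266.0 RPM in the WT samples, against 494.9, 169.8 and 376.8 RPM in the Tau tg samples. The 5p share did not overlap between the groups in 4 of the 24 hairpins (16.7%), miR-377, miR-485, miR-154 and miR-382, beside 10.9% of all 201. miR-154 gave 68.6% ± 3.33 of its reads from the 5p arm in WT and 58.2% ± 6.63 in Tau tg, and miR-485 gave 39.6% ± 2.77 and 32.9% ± 2.68 (SD, n = 3). Neither passed the test (limma adjusted p = 0.836 for miR-154 and limma adjusted p = 0.905 for miR-485).

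The 5′ end was precise in most members, and where it shifted, the seed shifted with it. Of the 30 members with a mean of at least 100 RPM and a RefSeq hairpin, 17 had over 90% of their reads at 1 start, 12 between 50% and 90%, and 1 under 50%. Several members used a pair of starts almost evenly. Among them was miR-411-5p, where 53.0% of the reads with its name began at the RefSeq start and 47.0% 1 base upstream. The upstream start turns the 6mer seed (positions 2 to 7) from AGUAGA into UAGUAG. Its reads with A read as G, described below, had no name and are left out. Counting them, the RefSeq start held 2083 of 3922, 1422 of 3204 and 925 of 1662 reads in WT 1, 2 and 3. In Tau tg 1, 2 and 3 it held 6346 of 14181, 1251 of 2310 and 1785 of 4095. These totals are reads starting within 2 bases of it. miR-323-3p had 51.1% of its reads 1 base upstream of the RefSeq start and 47.4% at it. In miR-382-3p, miR-496a-3p and miR-485-3p the main start also differed from that of RefSeq, by 2 bases upstream, 2 downstream and 1 downstream.

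A second start with at least 10% of the reads was found in 12 of the 30 members. In 2 of them (16.7%) its share did not overlap between the groups, beside 6 of the 51 miRNAs (11.8%) with such a second start among all those of at least 100 RPM that could be placed on a hairpin. In miR-667-3p the start 1 base downstream held 11.9, 1.47 and 3.06% of reads in WT and 17.1, 27.3 and 15.9% in Tau tg. It changes the seed from GACACC, with a 6mer seed viability of 17.4%, to ACACCU with 53.7%. In miR-409-3p the start 1 base downstream held 41.8, 56.4 and 67.3% in the WT samples and 26.2, 17.2 and 28.3% in the Tau tg samples, with the seeds AAUGUU (51.0%) and AUGUUG (79.8%). Both pairs were named after their values were seen and no test was made of them.

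At the 3′ end, some members carried a last base that their hairpin does not encode. In miR-323-3p 25.8% of reads ended in 1 such A, with 11.5% to 37.9% over the WT samples and 20.3% to 26.9% over the Tau tg samples. In miR-667-3p 26.1% ended in 1 such U and 11.1% in 1 such A. By contrast 99.3% of miR-369-5p reads and 99.2% of miR-154-3p reads matched the hairpin to the last base. Of the cluster's reads, 39.0% to 43.5% were 21 nt long in each sample, against 25.7% to 27.2% of all miRNA reads. At 20 nt the cluster held 3.48% to 5.92% and all miRNAs 7.42% to 9.47%, at 22 nt 40.2% to 46.4% and 38.0% to 40.4%, and at 23 nt 6.77% to 8.32% and 16.9% to 20.4%.

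Single sequences were then compared, since 1 miRNA is present as many isoforms. Of the 655 cluster sequences tested, 39 (5.95%) had an unadjusted p under 0.05, beside 803 of 36070 (2.23%) over all sequences, and 0 an adjusted p under 0.05 in limma. Leaving out 1 library moved the 39 to between 22 (without Tau tg 2) and 48 (without WT 1), with 23 without Tau tg 3. Of the 39, 31 were higher and 8 lower in Tau tg. Without 1 library this split ran from 22 higher and 14 lower (without WT 3) to 20 and 3 (without Tau tg 3). The split of the 803 was not counted, so the split of the 39 cannot be called particular to the cluster. Of the 689 mature miRNAs tested, whatever their p, 438 had a log2 fold change above 0. From 10 RPM up, 12 of 194 cluster sequences (6.19%) had an unadjusted p under 0.05, beside 4.28% of all 3899. The 39 belonged to 21 members, led by miR-667-3p with 5 and miR-134-5p with 4, and isoforms of 1 miRNA share their source. Only 4 of the 39 were the most abundant sequence of their miRNA, 14 were shorter forms with the same 5′ end and 5 longer ones, and 14 began elsewhere.

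The 3 with the lowest p, picked by their values, were all shortened at the 3′ end, so their seeds, in capitals, were those of the usual forms.
miR-154-3p, 21 nt: aAUCAUACacgguugaccuau
miR-134-5p, 21 nt: uGUGACUGguugaccagaggg
miR-379-3p, 20 nt: uAUGUAACaugguccacuaa
The miR-154-3p form was at 1.41, 2.03 and 3.67 RPM in the WT samples, against 40.0, 28.4 and 38.9 RPM in the Tau tg samples (log2 fold change 3.49, SE 0.97, limma adjusted p = 0.279). The miR-134-5p form was at 0.678 to 0.937 RPM in the WT samples, against 15.9, 43.5 and 21.3 RPM in the Tau tg samples (3.80, SE 1.06, limma adjusted p = 0.290). The miR-379-3p form was at 1.87, 4.07 and 4.59 RPM in the WT samples, against 70.3, 39.3 and 25.8 RPM in the Tau tg samples (3.30, SE 0.93, limma adjusted p = 0.310). In each the groups stood far apart, but none passed the test after adjustment over all sequences, and the WT values rest on few reads. The summed level of miR-154-3p over all its forms differed by 0.25 (SE 0.38).

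In several members a fixed A was read as G. Adenosine deaminases (ADAR enzymes) turn adenosine in double-stranded RNA into inosine, which is read as G, and miRNA precursors of this domain are known substrates. In the sequences below, taken from the 5′ end, the base in question is in capitals, first as in RefSeq and then as read.
miR-411-5p: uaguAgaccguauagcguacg
miR-411-5p, A5G: uaguGgaccguauagcguacg
miR-379-5p: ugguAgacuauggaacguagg
miR-379-5p, A5G: ugguGgacuauggaacguagg
miR-381-3p: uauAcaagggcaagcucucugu
miR-381-3p, A4G: uauGcaagggcaagcucucugu
miR-377-3p: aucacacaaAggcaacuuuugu
miR-377-3p, A10G: aucacacaaGggcaacuuuugu

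Positions are counted from 1 at the mature 5′ end, with the RefSeq base first. Over the first 18 bases of the 22 members with at least 100 reads in each sample, 8 A positions had a mean G share of at least 1%. After leaving out changes that equal another mature miRNA, 7 such positions remained for A-to-G and 1 for all other kinds of change, C11U of miR-668-3p with 1.06%. The 11 other kinds of change stayed at or below that value on average at every position.

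Position 5 of miR-411-5p was read as G most often. The share was 15.3, 21.4 and 42.6% in WT samples 1, 2 and 3, against 25.6, 17.4 and 29.0% in Tau tg 1, 2 and 3, with WT 3 well above the rest (95% Wilson interval 39.4% to 45.8% of 925 reads). The group means were 26.4% ± 14.3 and 24% ± 5.96 (exact permutation p = 0.9, two-sided, adjusted p = 1 over the 8 sites). Position 5 of miR-379-5p was at 17.8, 5.90 and 17.3% in the WT samples, against 17.2, 25.8 and 13.6% in the Tau tg samples, lowest in WT 2 (4.86% to 7.15% of 1627 reads) and highest in Tau tg 2 (23.2% to 28.6% of 1001 reads). Its group means were 13.7% ± 6.74 and 18.9% ± 6.26 (exact permutation p = 0.6, adjusted p = 1). Counting also reads that start up to 2 bases away, which takes in the second start of miR-411-5p, its share was 24.8, 32.8 and 42.4% in the WT samples and 26.1, 23.6 and 32.2% in the Tau tg samples. In both sites the samples of 1 group differed beyond their counting intervals, and the groups overlapped. The smallest p that 3 samples against 3 allow is 0.1, and the intervals cover counting error only.

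Both changes lie within the seed. For reads at the RefSeq start, that of miR-411-5p goes from AGUAGA, with a 6mer seed viability of 87.2%, to AGUGGA with 64.3%. Reads that start 1 base upstream have another unchanged seed, UAGUAG with 84.3%, and the viability of its changed form is not given here. The change in miR-379-5p goes from GGUAGA with 34.4% to GGUGGA with 15.7%. The deposited table gave no miRNA name to the changed reads of either, so they are not part of the members' levels above. With the changed reads that begin at the RefSeq start, miR-411-5p stands at 1479.0 RPM ± 217.4 in the WT group and 1583.5 RPM ± 204.2 in Tau tg. In the same way miR-379-5p stands at 750 RPM ± 309 and 905 RPM ± 163. Changed reads from other starts are not in these sums. For miR-411-5p in WT 1, 319 changed reads began at the RefSeq start and 972 within 2 bases of it.

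Position 4 of miR-381-3p needs its full length, because with G there its first 18 bases equal those of miR-300-3p. Over these 18 bases the G share was 57.6% to 68.2%, most of it miR-300-3p. Among reads that carry the whole miR-381-3p sequence, whose last bases differ from those of miR-300-3p, it was 11.1, 28.8 and 21.3% in the WT samples and 10.3, 27.1 and 29.7% in the Tau tg samples. WT 1 and Tau tg 1 were low and the other 4 samples higher, so the spread lay within both groups (20.4% ± 8.85 and 22.4% ± 10.6, exact permutation p = 0.8). The full-length comparison was chosen after seeing the data. The deposited table named these reads miR-300-3p, to which the exact form with G added 96.5 to 463 RPM in WT and 97.3 to 184 RPM in Tau tg. The seed goes from AUACAA (94.3%) to AUGCAA (84.4%), the seed of miR-300-3p.

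Position 10 of miR-377-3p, outside the seed, was read as G in 9.22, 4.85 and 3.45% of reads in the WT samples and in 7.17, 9.49 and 7.73% in Tau tg (exact permutation p = 0.3, adjusted p = 1). Its neighbor A9G was high in WT 2, with 12.9% of 721 reads, while the other 5 samples had 0 to 0.592%. In 3 of those the count was 0, which allows a share of up to 0.469% in WT 1, 2.10% in Tau tg 2 and 0.493% in Tau tg 3. A7G of miR-381-3p averaged 2.90% and A7G of miR-300-3p 1.68%, and a read of the second can also be a miR-381-3p read changed at 2 positions.

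A2G of miR-154-5p was the only one of the 8 sites whose groups did not overlap. Its share was 0.287, 0.289 and 0.272% in the WT samples and 2.44, 2.09 and 0.782% in the Tau tg samples (exact permutation p = 0.1, the smallest this design allows, adjusted p = 0.8). The WT shares rest on 4, 7 and 3 reads and the Tau tg shares on 140, 18 and 16. The seed goes from AGGUUA (67.1%) to GGGUUA (60%).

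**Figure D5:**
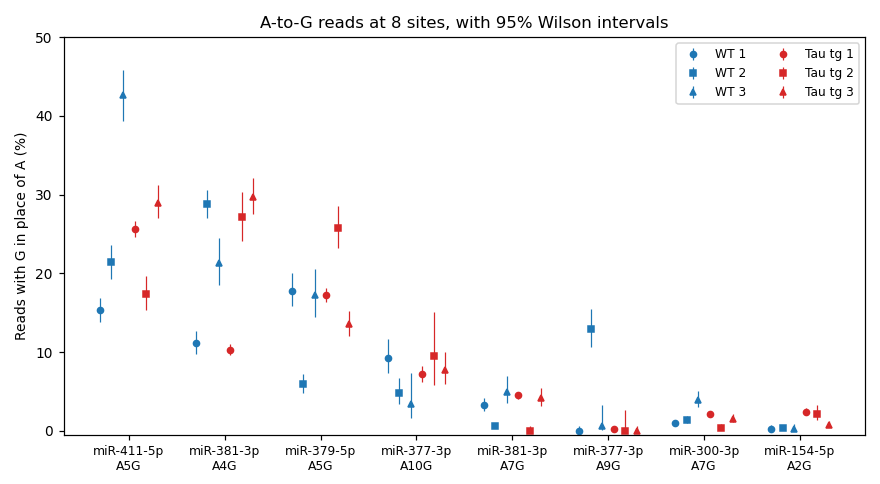
Share of reads with G in place of A (percent) at 8 positions of cluster miRNAs, 1 symbol per sample, blue for WT and red for Tau tg, bars giving 95% Wilson intervals. miR-381-3p A4G is over whole mature sequences and the others over the first 18 bases. At each of the 8 sites some samples of the same group have separate intervals, and the groups do not overlap at miR-154-5p A2G alone.

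The study rates each read by its 6mer seed viability, the survival of cells given a short RNA with that seed, averaged over 3 mouse cell lines, and seeds with low values are the toxic ones. The cluster's reads carried seeds of high viability. Their mean, weighted by reads, was 70.3, 71.7 and 71.9% in the WT samples and 70.7, 70.7 and 69.6% in the Tau tg samples, while all miRNA reads lay between 57.3% and 60%. The group means were 71.3% ± 0.881 and 70.3% ± 0.625, and the samples overlapped. Reads under 50% viability made up 12.7% to 15.5% of the cluster in WT and 14.3% to 16.3% in Tau tg, and 22.6% to 25% of all miRNA reads.

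Among the 47 members with a mean of at least 10 RPM, the main seed of 24 had a viability of at least 70% and that of 12 was under 50%. The high end held miR-410-3p and miR-381-3p, both at 94.3%, miR-299a-5p at 90.3%, miR-382-3p at 87.6% and miR-411-5p at 87.2%. The low end held miR-485-5p at 5.80%, miR-323-5p at 11.7%, miR-667-3p at 17.4%, miR-666-5p at 21.4%, miR-544-3p at 22.7%, miR-666-3p at 26.9%, miR-668-3p at 33.5% and miR-379-5p at 34.4%. Of these, miR-667-3p was at 894.7, 552.9 and 346.7 RPM in the WT samples, against 667.6, 659.0 and 518.0 RPM in the Tau tg samples, and miR-485-5p was at 214.5, 214.1 and 101.8 RPM in the WT samples, against 156.1, 135.5 and 131.7 RPM in the Tau tg samples. The groups overlapped in both, with log2 fold changes of 0.14 (SE 0.39) and -0.25 (SE 0.48).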

How the data were processed

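Ago-bound short RNAs, taken from a gel by size markers of 19 to 35 nt, were sequenced from 3 WT and 3 Tau tg samples of mouse brain. Groups and replicate numbers came from the sample titles. The study used a GW182-derived peptide for the pull-down and the SPOROS pipeline, with Trim Galore named in the submitters' processing notes, to compile unique sequences, drop rare reads and name them by BLAST. The deposited values were RPM, scaled by the authors, and the viability column was a score per 6mer seed deposited by the authors. The aligner settings and versions were not given in the sources used here.

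RPM of sequences with the same mature name were summed. All values were whole multiples of 1 read (100% within 0.0006 RPM), which gave read numbers back. Levels, sequences and 5p to 3p ratios were tested with limma 3.58.1 with a trend on log2(RPM + 1), two-sided, with Benjamini-Hochberg adjustment over all rows of that fit. Rows that averaged 1 RPM or more were kept (ratios: 10 RPM or more over both arms and 1 RPM or more in each arm). Shares of G reads used exact permutation tests. edgeR 4.0.16, DESeq2 1.42.0 on recovered reads, other pseudocounts, filters and scalings, a block for the replicate number and the omission of single samples were alternatives. The limma, edgeR and DESeq2 steps were tested on simulated data with changes larger than those of the abundant members. How they handle changes as small as those seen here was not tested. Tables and permutation tests were made in Python 3.11.15 (SciPy 1.17.1, pandas 2.3.3, NumPy 2.4.6), figures in Matplotlib 3.10.9 and fits in R 4.3.3.

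Named members were the 15 most abundant, those with an unadjusted p under 0.05, hairpins with such an arm ratio and A-to-G sites with a mean share of at least 1%. Other members singled out were chosen after their values were seen. The members, lists and tests were chosen with earlier results of these data known. The labels give the Tau tg samples as separate mice and do not say so for WT, so p-values measure the spread between these samples. Which of 2 near-identical members a read was named after, as for miR-300-3p and miR-381-3p, was set by the authors.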

Additional observations from a re-analysis of the deposited data

How the results depend on the processing

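Under every alternative run for them, the summed level and weighted viability of the cluster, the main 5′ end shares of the 15 named members and the median log2 fold change moved by less than the spread between samples. The median still lay between -0.07 and 0.27, and the log2 ratio of sums between -0.11 and 0.19 without 1 sample, so both changed sign. The number of members with an adjusted p under 0.05 stayed at 0 throughout. The number with an unadjusted p under 0.05 was 0, but 1 with edgeR, 1 with DESeq2 and 1 with a replicate block. It was 1 to 3 of 55 when 1 sample was left out, beside 24 to 58 of all 689. Cluster sequences with an unadjusted p under 0.05 numbered 39, but 12 at a mean of at least 10 RPM, 24 with a pseudocount of 5, 41 with the replicate block, and 22 to 48 without 1 sample (22 without Tau tg 2 and 23 without Tau tg 3). Hairpins with such an arm ratio numbered 1, also with the block, and 1 to 3 without 1 sample (3 without WT 2, 2 without WT 3). Deviations from the group means correlated at -0.00201, -0.0693 and 0.0413 in same-numbered samples 1, 2 and 3. In the other pairs of a WT and a Tau tg sample they correlated at -0.127 to 0.106. Whether the replicate numbers mark pairs cannot be told from these values.

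Of 225 values of the 15 named members under alternatives, 30 changed sign and 2 passed p under 0.05, both without WT 1, miR-154-5p at -0.74 and miR-323-3p at 0.66. The log2 fold change with median-of-ratios scaling, edgeR and DESeq2 turned to -0.15, -0.15 and -0.18 for miR-487b-3p, -0.14, -0.25 and -0.28 for miR-495-3p, -0.10, -0.07 and -0.10 for miR-411-3p, and -0.02, -0.05 and -0.08 for miR-667-3p. Scaled to miRNA reads it was -0.10, -0.09 and -0.04 for the first 3. miR-369-5p was at -0.03 with median-of-ratios scaling and with DESeq2, and miR-379-5p at -0.01 with DESeq2. Without 1 sample the changes ran from -0.32 to 0.02 for miR-369-3p, -0.33 to 0.24 for miR-487b-3p, -0.33 to 0.07 for miR-410-3p, -0.34 to 0.03 for miR-300-3p, -0.06 to 0.31 for miR-411-5p, -0.05 to 0.30 for miR-369-5p, -0.51 to 0.46 for miR-495-3p and -0.20 to 0.48 for miR-667-3p. The difference in G share without 1 sample ran from -7.96 to 5.68 points for miR-411-5p A5G, -1.30 to 0.174 for miR-300-3p A7G, -0.29 to 5.16 for miR-381-3p A4G and -1.20 to 1.42 for miR-381-3p A7G, which was 0.304 with reads starting within 2 nt. The causes of these changes were not tested.

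With 3 samples per group, depth differed between libraries as given above, so members under 10 RPM rest on few reads. The rare reads that the authors removed make low levels incomplete.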
